A study of Mus musculus with 2 samples.

Results

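The colony-stimulating factor axis was read here as 8 genes: the ligands Csf1, Il34, Csf2 and Csf3 and the receptor genes Csf1r, Csf2ra, Csf2rb and Csf3r. They were taken by gene symbol, with earlier results of these data known. All 8 were found among the 31053 features of the deposited single-cell count matrices. Cells came from tumours of mice bearing AB1-HA, a mouse mesothelioma line. The tumours were digested with collagenase and DNase, dead cells were removed with propidium iodide, and cells carrying CD45, the leukocyte phosphatase encoded by Ptprc, were sorted. Mice had received either an anti-VEGF antibody or a control antibody, and each of these 2 treatments gave 1 library. How many mice a library pools is not stated in the sources at hand. There was no replicate, so no test between the groups could be made and each difference describes these 2 libraries.

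Csf1 and Il34 encode ligands of one shared receptor, the tyrosine kinase Csf1r, on which monocytes, tissue macrophages and osteoclasts depend for survival and growth. Csf2 encodes GM-CSF, which binds the alpha chain Csf2ra and signals through the beta chain Csf2rb, a chain that also serves the receptors of IL-3 and IL-5. Csf3 encodes G-CSF, a main driver of neutrophil production, and its receptor is Csf3r.

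The promoters shown are those of the ligand gene led by neutrophil-gated and collagen-gated cells and of 2 receptor genes of myeloid classes. RefSeq promoter windows (GRCm38.p6, 250 bases before to 50 after the start) were held for 4 of the 8 genes, Csf1, Csf2, Csf2ra and Csf3r. The letters GAGGAA, which hold the GGAA core that PU.1 (Spi1) and other ETS factors bind, were searched on both strands and are in capitals. They occurred in 28.3% of all 32851 windows. Csf2ra held a tandem pair at -14 to -9 and -8 to -3 from the start, Csf3r held 1 match at -86 to -81, and the Csf1 and Csf2 windows held 0. The RefSeq starts can differ from the gene bounds given below. By those bounds the Csf3r match lies inside the gene, as does the Csf2ra match at -8 to -3. The Csf2ra match at -14 to -9 crosses the bound of its gene. The Csf2 window (chr11:54249850-54250149) lies wholly outside its gene. The windows are chr3:107760420-107760719 (minus strand), chr19:61228369-61228668 (minus strand) and chr4:126024409-126024708 (plus strand), each written 5′ to 3′ on its gene's strand.
Csf1: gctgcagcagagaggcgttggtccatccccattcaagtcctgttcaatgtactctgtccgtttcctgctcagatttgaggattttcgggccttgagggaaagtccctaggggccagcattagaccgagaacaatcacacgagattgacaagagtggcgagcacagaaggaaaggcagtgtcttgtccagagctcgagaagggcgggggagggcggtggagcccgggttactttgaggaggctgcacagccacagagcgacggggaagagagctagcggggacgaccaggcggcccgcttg
Csf2ra: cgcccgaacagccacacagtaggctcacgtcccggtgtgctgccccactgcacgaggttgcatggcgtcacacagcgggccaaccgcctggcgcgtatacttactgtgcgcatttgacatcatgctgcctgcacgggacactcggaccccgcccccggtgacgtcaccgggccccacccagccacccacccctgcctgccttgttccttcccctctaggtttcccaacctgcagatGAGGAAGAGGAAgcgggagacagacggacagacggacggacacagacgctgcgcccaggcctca
Csf3r: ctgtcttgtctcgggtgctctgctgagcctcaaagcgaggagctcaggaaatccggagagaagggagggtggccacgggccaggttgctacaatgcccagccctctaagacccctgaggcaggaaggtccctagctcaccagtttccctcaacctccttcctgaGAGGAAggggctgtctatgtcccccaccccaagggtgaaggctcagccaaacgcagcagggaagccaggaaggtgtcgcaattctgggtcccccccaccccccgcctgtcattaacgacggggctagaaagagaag

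The genes lie, on GRCm38, at chr3:107741048-107760469 (Csf1), chr8:110741829-110805924 (Il34), chr11:54247271-54249667 (Csf2), chr11:98701263-98703629 (Csf3), chr18:61100598-61132149 (Csf1r), chr19:61223957-61228429 (Csf2ra), chr15:78325752-78353847 (Csf2rb) and chr4:126024550-126044440 (Csf3r). Antisense genes overlap Il34 and Csf2, and Hmgxb3 overlaps Csf1r on the other strand. The strand setting of the counting is not stated, so reads of these overlaps may not be separable.

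After filtering, 8159 anti-VEGF cells and 10805 control cells remained, with medians of 22503 and 18265 UMIs per cell. A UMI (unique molecular identifier) counts 1 captured transcript end. The libraries shared 35 barcode sequences. Each cell was placed by its own marker genes, none of which is one of the 8, and of 18 classes 11 had at least 30 cells in 1 library or both. Macrophage-gated cells were the most numerous, with 3456 anti-VEGF and 4857 control cells. Cells with as many macrophage markers but a low summed level of them numbered 924 and 1123, cells with osteoclast markers such as Acp5 and Ctsk 949 and 1841, and monocyte-gated cells 378 and 265. Collagen-expressing cells without a Ptprc UMI, which go against the CD45 sort at the RNA level, numbered 650 and 463, and those with one 114 and 74. Neutrophil-gated cells numbered 250 and 53 and were shallow, with medians of 2225 and 2466 UMIs. The small classes were T-gated cells (53 and 73), NK-gated cells (10 and 31), mature dendritic-gated cells (18 and 35) and dendritic-gated cells with Flt3 (18 and 30). Lineage-gated cells that also had high macrophage markers were set apart, 59 and 146 of them with T or NK markers.

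Levels are CPM, a gene's summed UMIs per 1000000 UMIs of its class, with exact Poisson 95% intervals. All intervals given here cover counting error only. Levels are compared between classes for the same gene, not between genes.

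The highest levels of Csf1 and Csf1r lay in different classes. In both libraries Csf1 was highest in neutrophil-gated and collagen-gated cells, and Csf1r in cells of the macrophage line, though neutrophil-gated cells and collagen-gated cells with Ptprc (142 and 189 CPM) held Csf1r too. Neutrophil-gated cells had 481 CPM of Csf1 (435 to 531) in the anti-VEGF library and 524 CPM (425 to 640) in the control library, and 134 of 250 and 31 of 53 of them held a Csf1 UMI. Collagen-gated cells without Ptprc had 107.6 CPM (104 to 112) and 149 CPM (143 to 155). Being many and deep, they held 56.7% and 58.1% of their libraries' Csf1 UMIs, against 7.89% and 2.19% in neutrophil-gated cells. Collagen-gated cells with Ptprc had 80.8 CPM (74.1 to 88.1) and 146 CPM (135 to 158). Neutrophil-gated cells exceeded the next class 4.47-fold (4.02 to 4.97) and 3.52-fold (2.84 to 4.32).

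Below these classes, T-gated cells had 38.2 and 12.2 CPM of Csf1, monocyte-gated cells 10.2 and 6.21, macrophage-gated cells 4.96 and 5.32, and osteoclast-marker cells 1.15 and 0.923. In the control library the levels of both collagen classes could not be ordered within counting error, with a ratio of 1.02 (0.931 to 1.12). The same held there for T-gated over monocyte-gated cells (1.97, 0.888 to 3.94) and for monocyte-gated over macrophage-gated cells (1.17, 0.849 to 1.57). NK-gated cells held no Csf1 UMI in 10 and 31 cells.

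Depth differs between these classes, so cells were also thinned to a fixed number of UMIs. At 1000 UMIs, Csf1 was detected in 37.1% (31.0 to 43.6) of 237 anti-VEGF and 45.3% (31.6 to 59.6) of 53 control neutrophil-gated cells. Collagen-gated cells without Ptprc reached 9.25% (7.11 to 11.8) and 10.2% (7.60 to 13.4), and osteoclast-marker cells, the class with the lowest share among the large ones, 0.226% and 0.237%. At 5000 UMIs, where 20 and 4 neutrophil-gated cells were deep enough, Csf1 was detected in 32.7% (29.0 to 36.6) of 608 and 38.5% (33.7 to 43.5) of 397 collagen-gated cells without Ptprc. Macrophage-gated cells held one in 2.30% and 2.02%. Neutrophil-gated cells also carried macrophage markers, which summed over 9 genes to 7416 CPM in the anti-VEGF and 9729 CPM in the control library, against 15175 and 20520 CPM in macrophage-gated cells. Their own 8 markers summed to 68915 and 76602 CPM.

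Il34, the other ligand of Csf1r, was also led by collagen-gated cells. Those without Ptprc had 22.7 CPM (20.9 to 24.6) and 19.7 CPM (17.7 to 21.9), and those with Ptprc 16.3 and 15.9 CPM. Cells with weak macrophage markers had 6.78 and 7.61 CPM and osteoclast-marker cells 4.48 and 4.24 CPM, against 1.07 and 1.22 CPM in macrophage-gated cells. T-gated cells held 0 Il34 UMIs in the anti-VEGF library and 5 UMIs in 2 of 73 cells in the control library, the second of these being 6.11 CPM (1.98 to 14.3). Monocyte-gated cells held 5 and 0 Il34 UMIs and neutrophil-gated cells 1 and 0, and mature dendritic-gated, Flt3 dendritic-gated and NK-gated cells held 0 in both libraries. Of all Il34 UMIs, 48.1% and 32.04% lay in collagen-gated cells without Ptprc.

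Csf1r was highest in osteoclast-marker cells, at 635 CPM (626 to 644) in the anti-VEGF library and 710 CPM (702 to 718) in the control library. Macrophage-gated cells followed with 401 (397 to 405) and 505 (500 to 509) CPM, then monocyte-gated cells with 387 and 469 and cells with weak macrophage markers with 317 and 405. Osteoclast-marker cells exceeded macrophage-gated cells 1.58-fold (1.55 to 1.61) and 1.41-fold (1.39 to 1.43). Being numerous, macrophage-gated cells held 47.3% and 46.5% of all Csf1r UMIs, and osteoclast-marker cells 25.4% and 27.1%. Collagen-gated cells without Ptprc had 9.05 and 9.45 CPM. At 5000 UMIs per cell Csf1r was detected in 91.7% and 94.5% of osteoclast-marker cells and in 81.4% and 89.8% of macrophage-gated cells (medians before thinning of 21865 and 18265 UMIs in the second class). In collagen-gated cells without Ptprc (medians of 38686.5 and 34643 UMIs) the share was 3.78% and 4.79%, and their macrophage markers summed to 163 and 217 CPM.

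Csf1r levels in lymphoid and neutrophil classes rested on few cells. Neutrophil-gated cells had 153 CPM (128 to 182) and 278 CPM (207 to 366), with 35 of 250 and 13 of 53 cells holding a UMI, and 43 of 127 and 25 of 51 UMIs lay in 1 cell. T-gated cells had 98.7 and 158 CPM, with 52 of 62 and 39 of 129 UMIs in 1 cell. In NK-gated cells all 25 anti-VEGF UMIs lay in 1 of 10 cells. Mature dendritic-gated cells had 1 UMI in 18 cells and 61 UMIs in 35 cells.

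**Figure D1:**
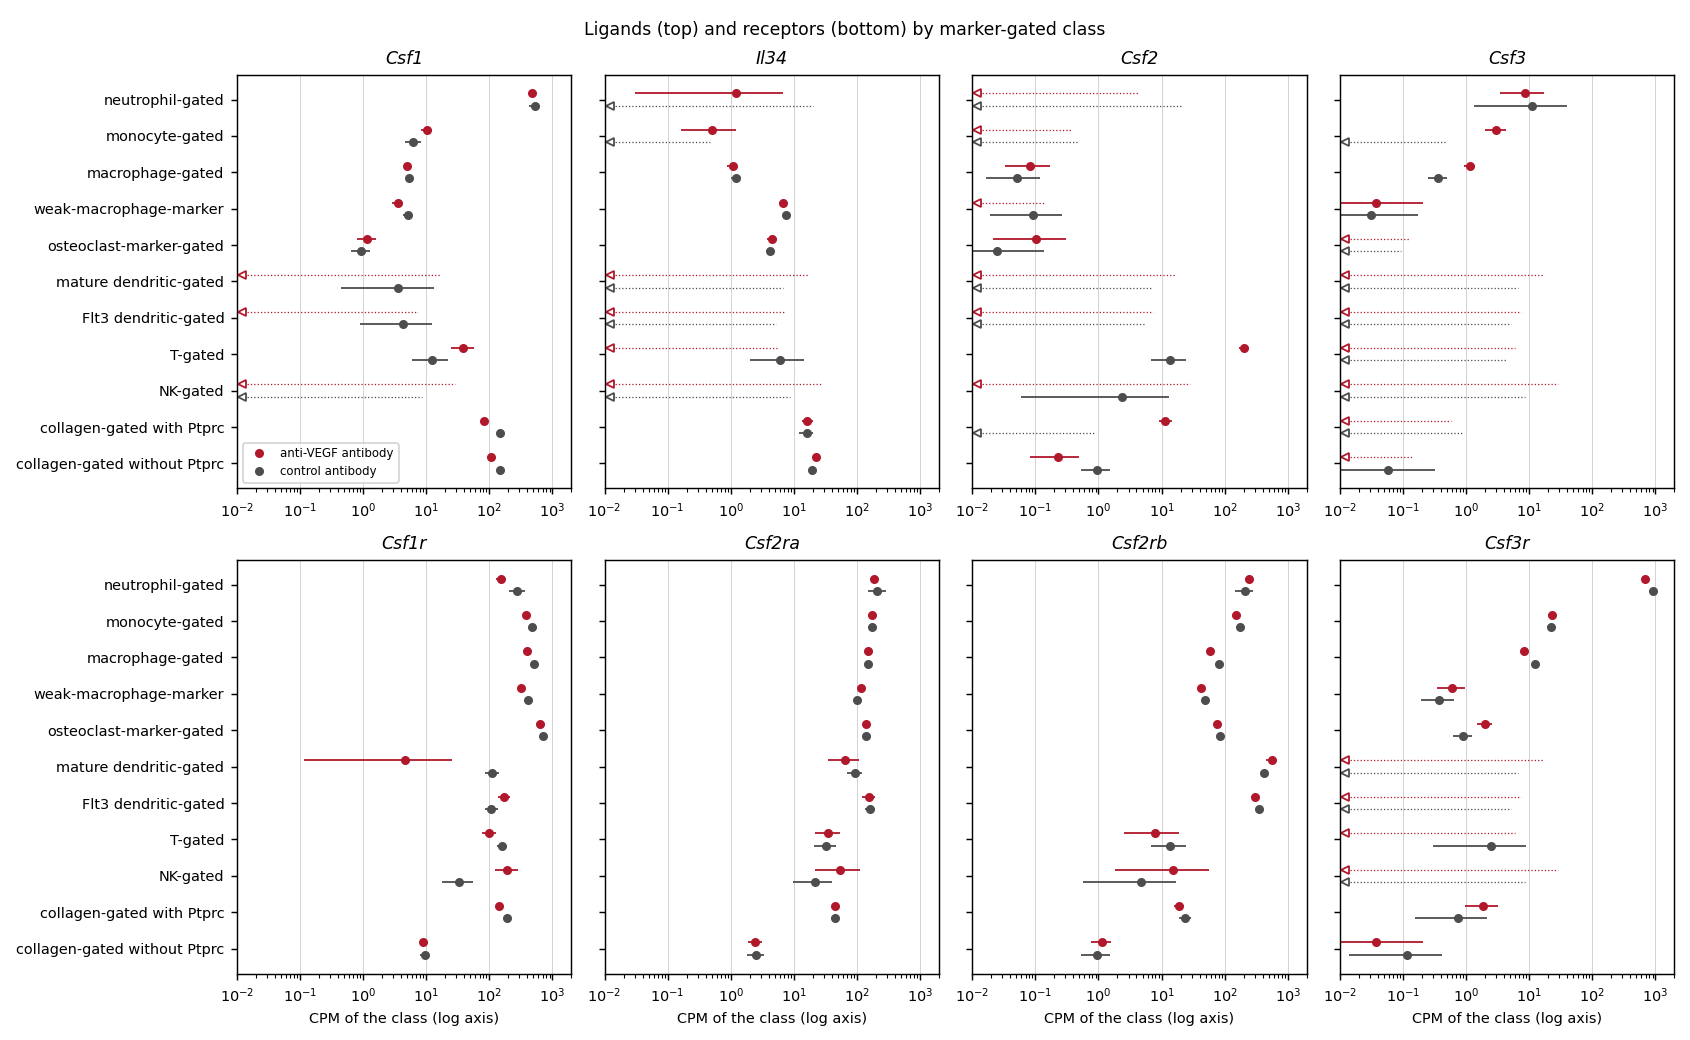
Levels of the 4 ligand genes (top row) and 4 receptor genes (bottom row) in 11 marker-gated classes, as CPM of the class on a log axis. Points are the anti-VEGF library (red, above) and the control library (grey, below) with exact Poisson 95% intervals, and an open triangle with a dotted line is a class with 0 UMIs and its upper limit. Csf1 peaks in neutrophil-gated cells at 481 and 524 CPM and Csf1r in osteoclast-marker cells at 635 and 710 CPM.

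How often Csf1 and Csf1r were detected in the same cell depended on class and depth. At 5000 UMIs both were detected in 64 of 3175 anti-VEGF and 64 of 3559 control macrophage-gated cells, 2.02% and 1.80%. Collagen-gated cells without Ptprc had both in 7 of 608 and 6 of 397 cells. Collagen-gated cells with Ptprc had both in 9 of 112 (8.04%) and 15 of 71 (21.1%). Among these last cells, 24.3% and 53.6% of those with Csf1 also had Csf1r, where 38.4% and 59.2% of all of them had Csf1r. Without thinning, both were found in 54 of 114 and 48 of 74 of these cells (47.4% and 64.9%), and in 13.2% and 17.7% of collagen-gated cells without Ptprc. In the cells with Ptprc, macrophage markers summed to 1326 and 877 CPM and collagen markers to 1629 and 2414 CPM. Osteoclast markers in them summed to 2821 and 4361 CPM. The part of mixed droplets in the joint detection was not tested. At 5000 UMIs Csf1r was detected in 16 of 16 and 13 of 16 osteoclast-marker cells with Il34, where 91.7% and 94.5% of all of them had it. It was detected in 0 of 53 and 0 of 41 collagen-gated cells without Ptprc that held Il34, where 3.78% and 4.79% of all of them had it. Without thinning, 21.0% and 26.4% of the latter cells with Il34 also had Csf1r, where 18.2% and 23.3% of all of them had it.

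The GM-CSF receptor chains were found in all myeloid classes, and the beta chain was the more uneven. Csf2ra, the ligand-binding chain, had 188 CPM (160 to 220) and 207 CPM (147 to 285) in neutrophil-gated cells, 172 and 174 in monocyte-gated cells, 155 and 160 in Flt3 dendritic-gated cells, 152 and 151 in macrophage-gated cells and 141 and 138 in osteoclast-marker cells. No neighbouring classes among the first 4 could be ordered within counting error in either library. Lower levels were found in mature dendritic-gated cells (64.6 and 92.7 CPM), T-gated cells (35.0 and 31.8) and collagen-gated cells without Ptprc (2.44 and 2.51).

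Csf2rb, the signalling chain, had its top level in mature dendritic-gated cells, with 554 CPM (459 to 662) and 423 CPM (371 to 481). Flt3 dendritic-gated cells had 303 (257 to 355) and 351 (309 to 398) CPM, neutrophil-gated cells 245 (212 to 281) and 207 (147 to 285), and monocyte-gated cells 149 and 174. Macrophage-gated cells had 58.6 and 81.1 CPM and osteoclast-marker cells 76.1 and 85.9. The step between the dendritic classes was 1.83-fold (1.43 to 2.33) in the anti-VEGF library and 1.20-fold (1.00 to 1.45) in the control library. At 5000 UMIs Csf2rb was detected in 16 of 18 and 28 of 32 mature dendritic-gated cells, in 21.0% and 28.3% of macrophage-gated cells and in 0.658% and 1.01% of collagen-gated cells without Ptprc.

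Both GM-CSF receptor chains were detected in 31.9% of 364 anti-VEGF and 32.3% of 260 control monocyte-gated cells at that depth, and in 11.4% of 3175 and 15.2% of 3559 macrophage-gated cells. Among macrophage-gated cells, 22.6% and 29.3% of those with Csf2ra also had Csf2rb, where 21.0% and 28.3% of all of them had it. In mature dendritic-gated cells 5 of 5 and 8 of 8 cells with Csf2ra had Csf2rb, where 88.9% and 87.5% of all of them had it. Csf2rb has a close relative, Csf2rb2, whose product serves the mouse IL-3 receptor. Of the 90-base windows of a Csf2rb transcript, 8.19% are found unchanged in Csf2rb2 transcripts, and 0% of those in its last 1000 bases, the end that 3-prime libraries read. Csf2rb2 had 87.7 and 81.8 CPM in mature dendritic-gated cells and 14.3 and 15.98 CPM in macrophage-gated cells.

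Csf2, the GM-CSF gene, was seen in few cells. The anti-VEGF library held 270 UMIs in 19 cells and the control library 62 UMIs in 30 cells. T-gated cells had 126 UMIs in 5 of 53 cells and 11 UMIs in 6 of 73 cells, which gave 201 CPM (167 to 239) and 13.4 CPM (6.71 to 24.0). Of the 126 UMIs, 109 lay in 1 cell. A further 75 anti-VEGF UMIs lay in 1 collagen-gated cell with Ptprc, and 37 in 1 cell with both T or NK and macrophage markers. In the control library 15 of the 62 lay in 1 collagen-gated cell without Ptprc. Macrophage-gated cells had 7 and 5 UMIs among 3456 and 4857 cells. Neutrophil-gated, monocyte-gated and dendritic-gated cells had 0 in both libraries, which in neutrophil-gated cells allows up to 3.62 and 16.4 CPM at 3 counts.

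Csf3, the G-CSF gene, was rarer, with 136 UMIs in 40 anti-VEGF cells and 41 UMIs in 13 control cells. Macrophage-gated cells held 97 UMIs in 20 cells and 35 UMIs in 8 cells, of which 35 and 23 lay in 1 cell. Monocyte-gated cells held 29 UMIs in 12 of 378 anti-VEGF cells and 0 in 265 control cells. Neutrophil-gated cells held 7 UMIs in 5 cells and 2 UMIs in 1 cell, which in this shallow class is 8.44 CPM (3.39 to 17.4) and 10.9 CPM (1.32 to 39.4). Osteoclast-marker, T-gated, NK-gated, mature dendritic-gated and Flt3 dendritic-gated cells held 0 Csf3 UMIs in both libraries.

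Csf3r, the G-CSF receptor gene, was highest in neutrophil-gated cells, with 694 CPM (639 to 754) and 923 CPM (789 to 1073). It was detected in 201 of 250 and 45 of 53 of them, and after thinning to 1000 UMIs in 52.7% (46.2 to 59.2) and 60.4% (46.0 to 73.5). It was detected in 0 of 638 and 0 of 460 collagen-gated cells without Ptprc at that depth. Monocyte-gated cells, the next class, had 22.8 and 22.2 CPM, and neutrophil-gated cells exceeded them 30.4-fold (26.0 to 35.6) and 41.5-fold (33.4 to 51.6). Macrophage-gated cells had 8.39 and 12.3 CPM, yet by their number held 38.2% and 65.6% of all Csf3r UMIs, against 30.9% and 9.33% in neutrophil-gated cells. Mature dendritic-gated, Flt3 dendritic-gated and NK-gated cells had 0 UMIs.

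**Figure D2:**
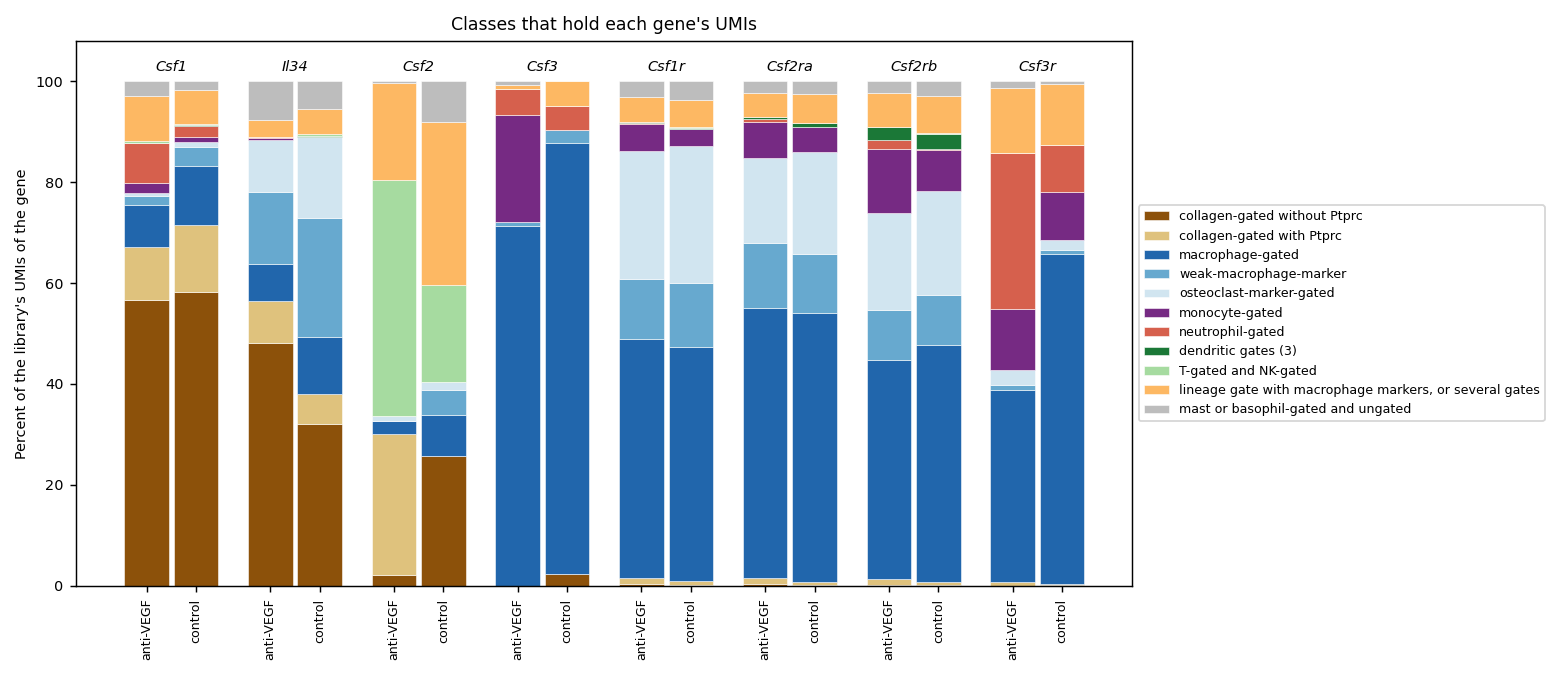
Share of each library's UMIs of a gene (percent, from 0) held by each class, with the anti-VEGF library left of the control library for each gene. Collagen-gated cells without Ptprc hold 56.7% and 58.1% of Csf1, and macrophage-gated cells 47.3% and 46.5% of Csf1r.

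Within macrophage-gated cells the receptors differed by state. A state here is the highest 25% of macrophage-gated cells of both libraries by the summed level of its markers, so it is a range of a score, and a cell can be in several states. Csf1r was higher in resident-like cells (Selenop, Stab1, Folr2, Lyve1 and Cd163), with 481 and 593 CPM, than in other macrophage-gated cells, with 384 and 465 CPM, giving ratios of 1.25 (1.22 to 1.28) and 1.27 (1.25 to 1.30). It was lower in hypoxic cells (Bnip3, Slc2a1, Adm, Ndrg1 and Ankrd37), with 340 and 412 CPM against 447 and 515, a ratio of 0.759 (0.743 to 0.776) in the anti-VEGF library and a ratio with an interval of 0.775 to 0.826 in the control library. Csf2rb was highest in MHC class II cells, with 104 and 132 CPM against 45.6 and 63.9, and ratios of 2.27 (2.15 to 2.41) and 2.06 (1.97 to 2.16).

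Csf3r differed more over states than the other 3 receptors. Resident-like cells had 22.5 and 22.7 CPM against 5.30 and 7.59 in the others, ratios of 4.25 (3.65 to 4.93) and 2.99 (2.66 to 3.36), and MHC class II cells 17.4 and 17.6 against 5.78 and 10.5. Cells high in Lpl, Vegfc and Dusp9 had 5.05 and 8.28 CPM, with ratios of 0.518 and 0.580. Csf2ra stayed within ratios of 0.912 to 1.13 over the 7 states in both libraries. Among the ligands, Il34 was higher in the Lpl state, with 2.01 and 2.60 CPM against 0.696 and 0.541 and ratios of 2.89 (1.87 to 4.47) and 4.81 (3.21 to 7.36). Csf1 was higher in MHC class II cells, at 7.62 and 7.65 CPM against 4.19 and 4.53. The same held for interferon cells (markers such as Isg15 and Rsad2), at 6.97 and 7.95 CPM against 4.30 and 4.30. Resident-like cells had 8.10 against 4.27 CPM in the anti-VEGF library but 5.05 against 5.44 in the control library. With the highest 10% of cells as a state, interferon replaced MHC class II as the leading state of Csf1. From 177 cells (cycling) to 568 cells (resident-like) lay within 10% of a state's lower limit.

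**Figure D3:**
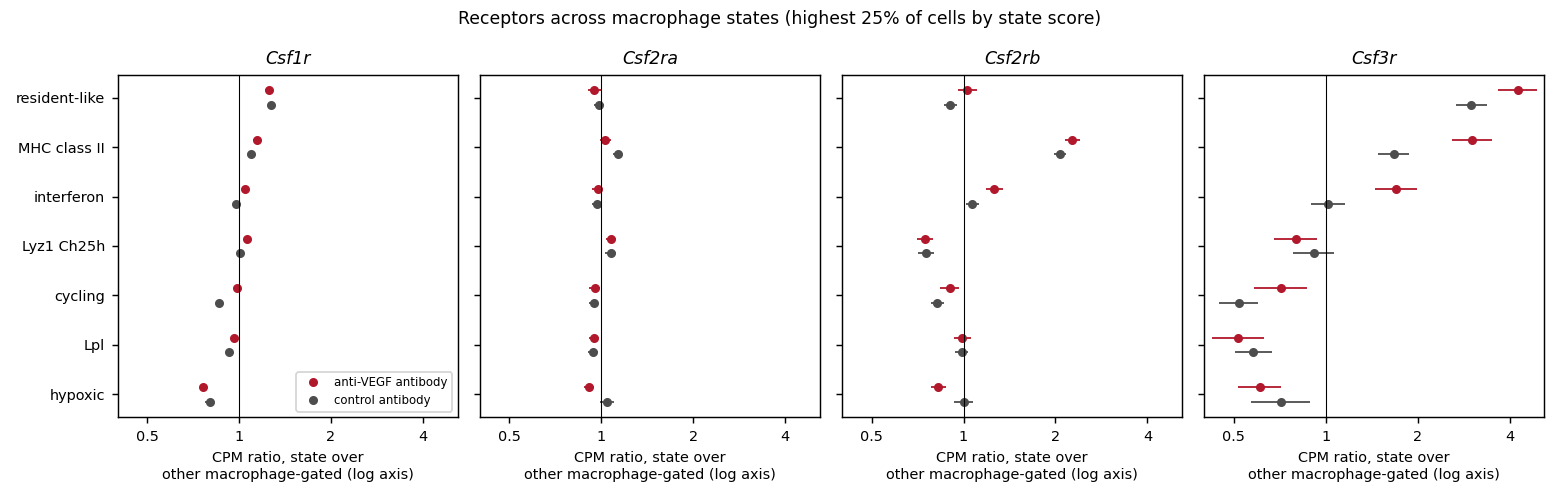
Ratio of CPM in each macrophage state over the other macrophage-gated cells (log axis, line at 1), with exact 95% intervals, anti-VEGF library in red and control library in grey. Csf2rb stands at 2.27 and 2.06 in MHC class II cells and Csf3r at 4.25 and 2.99 in resident-like cells.

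Levels in the anti-VEGF library were then set against the control library within the 8 classes of at least 30 cells in each, for genes with at least 30 UMIs in both libraries together. A difference was counted when it reached 1.5-fold, and 9 of 43 pairs of a gene and a class did so, 6 higher and 3 lower. Macrophage-gated cells had 1 of 7 genes of the axis past this limit, where 11.8% of all 13200 genes were. In osteoclast-marker cells it was 1 of 6 (7.45% of all genes), in monocyte-gated cells 1 of 5 (11.6%) and in neutrophil-gated cells 1 of 5 (34.1%). T-gated cells had 3 of 4 (19.3%) and collagen-gated cells with Ptprc 2 of 6 (14%). Collagen-gated cells without Ptprc had 0 of 5 (9.69%) and cells with weak macrophage markers 0 of 5 (14.7%).

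Csf1r was lower in the anti-VEGF library in 8 of 8 classes, with the interval below 1 in 7. Of all genes tested, 4158 of 13200 had a ratio above 1 in macrophage-gated cells. The same held for 4830 of 11863 genes in osteoclast-marker cells and 2784 of 5518 in T-gated cells. For Csf1r in macrophage-gated cells 401 CPM stood against 505 CPM, a ratio of 0.795 (0.784 to 0.806). The ratio was 0.783 (0.762 to 0.805) in cells with weak macrophage markers, 0.825 (0.788 to 0.864) in monocyte-gated cells and 0.894 (0.878 to 0.911) in osteoclast-marker cells. Ratios at or below that of macrophage-gated cells were found for 18.9% of the genes tested there. TMM scaling puts the log2 ratio of scaling factors at -0.11 in macrophage-gated, -0.27 in neutrophil-gated and -0.10 in Ptprc-positive collagen-gated cells. With it Csf1r was lower in 7 of 8 classes, collagen-gated cells without Ptprc being the exception, as they also were when cells of several lineages were assigned to one. Hypoxic cells, in which Csf1r was low, made up 1514 of 3456 anti-VEGF and 564 of 4857 control macrophage-gated cells. Inside that state the ratio was 0.824 (0.795 to 0.854), and outside it 0.868 (0.854 to 0.882).

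Csf1r passed 1.5-fold in neutrophil-gated cells (ratio 0.550, 0.394 to 0.777) and T-gated cells (0.626, 0.455 to 0.854). The neutrophil-gated log2 ratio of -0.86 became -0.21 with a stricter cell filter and -0.43 when cells of several lineages were assigned to one. Macrophage markers in these cells were 7416 against 9729 CPM, and their part in the Csf1r ratio was not tested. The T-gated direction reversed, to 0.60 on the log2 scale, without the cells of highest doublet score. Macrophage markers there summed to 615 CPM in the anti-VEGF and 861 CPM in the control library. Osteoclast markers there summed to more, 3251 and 3200 CPM. The part of both marker sets in the T-gated ratio was not tested.

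Csf2rb was lower in the anti-VEGF library in 5 of 7 classes, with 58.6 against 81.1 CPM in macrophage-gated cells, a ratio of 0.722 (0.697 to 0.748). Ratios at or below this were found for 10.7% of the genes tested there, and ratios above 1 for 4158 of 13200. Inside and outside the MHC class II state the Csf2rb ratio was 0.785 (0.741 to 0.830) and 0.713 (0.681 to 0.747). Its partner Csf2ra had a ratio of 1.00 (0.978 to 1.03) in macrophage-gated cells and lay from 0.907 to 1.16 in 8 classes, all 8 above 1 with TMM scaling. Outside these bounds, its log2 ratio was -3.56 in T-gated cells at a macrophage marker level of 20 in place of 40, 0.60 there at 80, and 1.30 in collagen-gated cells without Ptprc as a mean over cells. Csf3r had a ratio of 0.682 (0.621 to 0.749) in macrophage-gated cells, 0.992 (0.869 to 1.13) inside the resident-like state and 0.699 (0.609 to 0.801) outside it. Its ratio was alike inside the MHC class II state (0.991, and 0.550 outside) and the interferon state (0.977, and 0.584 outside). Inside the remaining states it ran from 0.610 (Lpl) to 0.851 (cycling). In neutrophil-gated cells the Csf3r ratio was 0.753 (0.633 to 0.899). It passed 1.5-fold in osteoclast-marker cells, with 57 UMIs in 24 of 949 cells against 36 UMIs in 28 of 1841 cells, a ratio of 2.20 (1.43 to 3.45). Thinned to 5000 UMIs, that log2 ratio of 1.14 became 0.54. Summed neutrophil markers in these cells were 36.9 against 9.03 CPM, and their part in the Csf3r ratio was not tested.

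Csf1 was lower in both collagen classes of the anti-VEGF library. The ratio was 0.723 (0.685 to 0.763) without Ptprc and 0.553 (0.491 to 0.624) with Ptprc, and the second was past 1.5-fold under 11 of 11 other settings. Ratios at or below these were found for 8.45% and 3.07% of the genes tested in these classes. In the cells with Ptprc, collagen markers summed to 1629 against 2414 CPM and osteoclast markers to 2821 against 4361 CPM. Macrophage markers there summed to 1326 against 877 CPM and endothelial markers to 2.16 against 18.6 CPM. The part of these markers in the Csf1 ratio was not tested. In neutrophil-gated cells the ratio was 0.918 (0.733 to 1.16), an interval that holds 1. T-gated cells had 24 UMIs against 10, a ratio of 3.13 (1.44 to 7.33). Monocyte-gated cells had 100 UMIs against 48, a ratio of 1.64 (1.15 to 2.37), whose log2 value of 0.72 became -0.026 when cells were thinned to 5000 UMIs. Neutrophil markers in monocyte-gated cells were 304 against 129 CPM, and their part in this ratio was not tested. Il34 ratios lay from 0.879 to 1.15 in the 5 classes compared, but depended on the setting. On the log2 scale they reached 2.93 in collagen-gated cells with Ptprc and -0.81 in cells with weak macrophage markers when thinned to 5000 UMIs, -1.46 in macrophage-gated cells as a mean over cells, and 0.67 in osteoclast-marker cells with a stricter cell filter.

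The Csf2 and Csf3 differences rested on few cells. For Csf2 the T-gated ratio was 14.9 (8.06 to 30.7), or 3.90 on the log2 scale, and 1.61 on that scale without the cell with the most UMIs in each library. The 75 UMIs of 1 collagen-gated cell with Ptprc, against 0 in the control class, gave a level at least 15.5-fold higher, with the floor set at 3 counts in the control class. For Csf3, macrophage-gated cells had 97 UMIs against 35, a ratio of 3.16 (2.13 to 4.79). Its log2 value of 1.66 became 0.22 when 80 in place of 40 macrophage-marker UMIs per 10000 were required. Interferon-state cells held 75 of these Csf3 UMIs in the anti-VEGF library and 2 in the control library. Outside that state it was 22 UMIs against 33, a ratio of 0.728 (0.405 to 1.29). Outside each of the other states the Csf3 ratio was above 1.

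**Figure D4:**
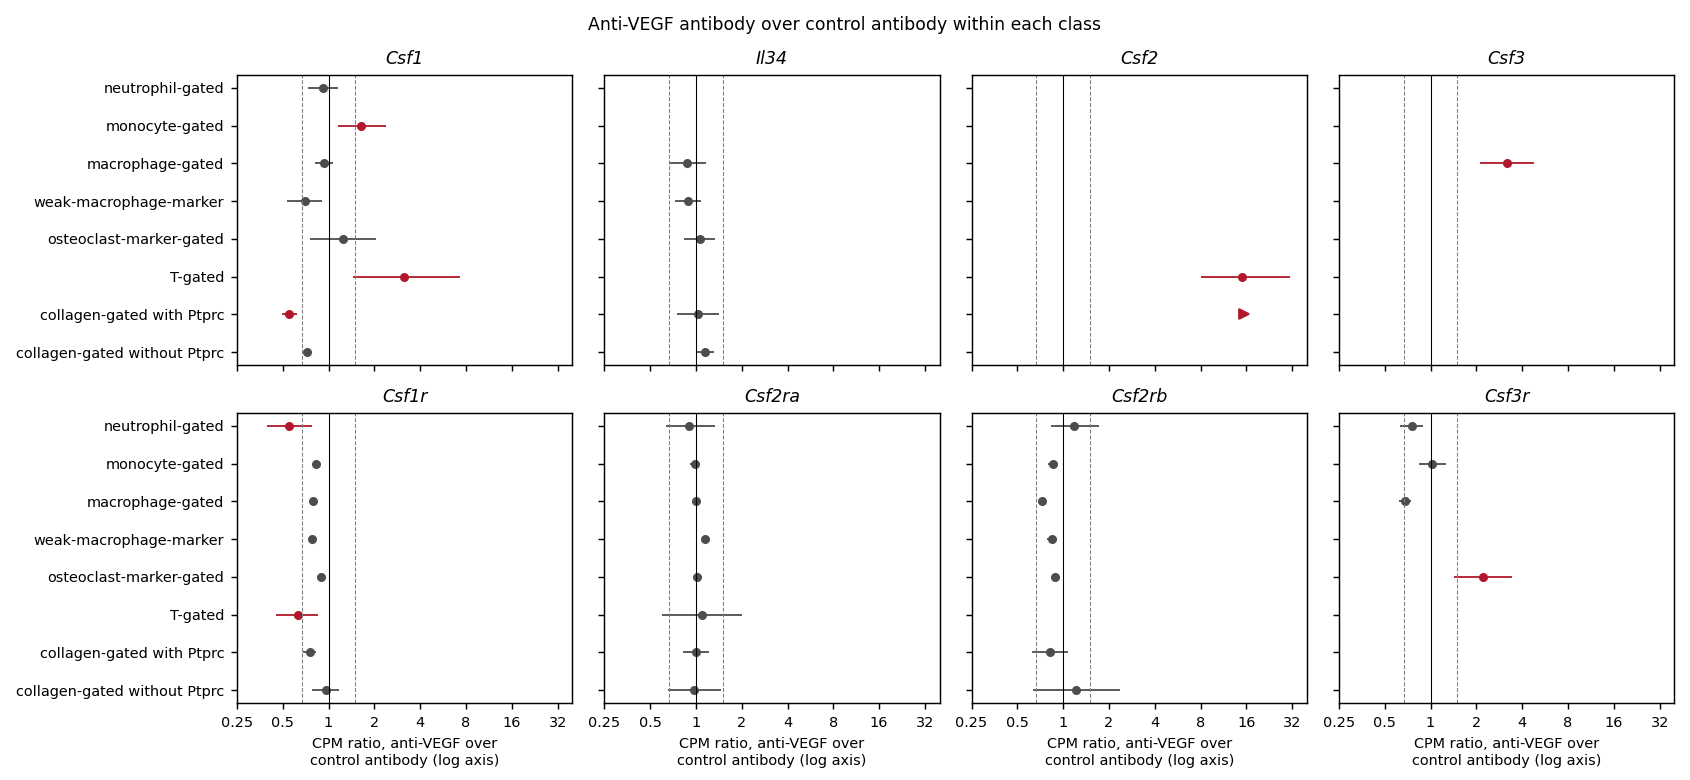
Ratio of CPM in the anti-VEGF library over the control library (log axis) for each gene and class with at least 30 UMIs, with exact 95% intervals that cover counting error only. Dashed lines mark 1.5-fold, red points are past it, and the triangle is the bound of at least 15.5 for a class with 0 control UMIs. Csf1r points lie below 1 in 8 of 8 classes, 7 of 8 with TMM scaling. Of all 13200 genes tested in macrophage-gated cells, 4158 had a ratio above 1.

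A list of 33 other genes of these pathways (kinases, STAT factors, their inhibitors, lineage factors and related chains) was read in the same classes. In macrophage-gated cells 2 of 29 list genes with enough UMIs were past 1.5-fold higher (4.81% of all genes tested were) and 0 lower (6.98%). They were Cebpe, a factor of granulocyte differentiation, with 3.47 against 2.03 CPM (ratio 1.71), and Sdc1, a cell-surface proteoglycan, with 23.6 against 15.03 CPM (1.57). The list's median log2 ratio was -0.03, beside -0.09 for all genes tested. Cebpe was also past 1.5-fold in monocyte-gated cells (2.83), osteoclast-marker cells (2.34) and cells with weak macrophage markers (1.81). Summed neutrophil markers were 57.7 against 20.6 CPM in macrophage-gated cells and 304 against 129 CPM in monocyte-gated cells, and their part in the Cebpe ratio was not tested.

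In collagen-gated cells without Ptprc 2 of 26 list genes were higher (4.75% of all genes) and 0 lower (4.94%). Both encode STAT-induced inhibitors, Socs3 (93.6 against 54.6 CPM, ratio 1.71) and Socs2 (5.22 against 2.80 CPM, 1.86). Collagen-gated cells with Ptprc had 4 of 27 higher (6.12%), among them the lineage factor Irf8 at 2.16 and the survival gene Bcl2l1 at 1.92, and 3 of 27 lower (7.91%), Socs1 at 0.527, Stat5a at 0.587 and Socs2 at 0.662. Cells with weak macrophage markers had 3 of 29 higher (9.46%), with Bcl2l1 at 2.49 and Irf8 at 1.78 beside Cebpe, and 1 lower (5.23%), Socs2 at 0.487. Osteoclast-marker and monocyte-gated cells had 1 of 29 higher each (3.76% and 5.51%), which was Cebpe, and 0 lower (3.69% and 6.04%).

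Neutrophil-gated cells had 4 of 18 list genes higher (16.1% of all genes), among them Socs1 at 3.37 and Bcl2l1 at 2.02, and 3 of 18 lower (18%), the kinase gene Jak2 at 0.581, Irf8 at 0.638 and Spi1 at 0.651. T-gated cells had 6 of 22 higher (10.6%), with Socs2 at 2.51 and Bcl2l1 at 2.32, and 3 of 22 lower (8.68%). The lower genes were Spi1, which encodes PU.1, at 0.401, Socs3 at 0.444 and the myeloid adaptor Tyrobp at 0.578. Macrophage markers in T-gated cells were also lower (615 against 861 CPM), while osteoclast markers were 3251 against 3200 CPM. The part of these markers in the list ratios was not tested.

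The genes most alike in profile were found over 27 sums, each of 1 class in 1 library, by the Pearson correlation of log2(CPM + 1) among 12184 genes. These points share libraries and differ in depth, so the values only describe likeness. For Csf1 they were Egr1 (0.91), Igf1r (0.90) and Sgms2 (0.88), and for Il34 Ptprn (0.92), Ehd2 (0.92) and Atxn10 (0.91). For Csf1r they were Cd68 (0.97), itself a macrophage gate marker, Clec4a2 (0.97) and Dok3 (0.95). Csf2 was closest to Tnfsf11 (0.90), Ccl1 (0.88) and Cxcr6 (0.86). The genes most like Csf2ra included Fes and Pira2 (0.95 each). Csf2rb was closest to Csf2rb2, Prkcd and Nuak2 (0.95 each), and Csf3r to Fpr2 (0.97), S100a8 (0.95, a neutrophil gate marker) and Acod1 (0.95). Among the 8 genes, Csf2ra had 0.91 with Csf2rb and 0.88 with Csf1r, while Csf1 had -0.36 with Csf1r. Csf3 had too few UMIs for this.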

How the data were processed

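RNA of single tumour cells was measured in 2 libraries (10x Genomics 3-prime v3.1), 1 per treatment. The authors deposited UMI counts per gene and cell barcode, unnormalized, for which the submitters' processing notes name Cell Ranger 3.0.2 and the mm10 build. Software version 3.1.0 stands in the file headers. The libraries held 8825 (anti-VEGF) and 11687 (control) barcodes with 213948867 and 233687412 UMIs. No column of per-sample values was left unused.

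Barcodes with at least 300 genes, 500 UMIs and at most 10% mitochondrial UMIs were kept. Cells were gated on the number of markers with a UMI (3 of 8 for neutrophils, 5 of 9 for macrophages) and on marker UMIs per 10000 (50 and 40, and 75 for osteoclast markers). The gate thresholds were set after seeing the data, and 314 of 10360 cells gated on macrophage markers lay within 10% of that level. The 8 genes and all lists were chosen with earlier results of these data known. Genes named from the pathway list were those with at least 30 UMIs in a class and at least 1.5-fold apart, at most 4 highest and 4 lowest per class. For each of the 8 genes with at least 300 UMIs the 3 genes of highest correlation were named, except 1 gene that is not reported here.

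Class sums were compared as CPM, with 95% intervals (exact Poisson for a level, conditional binomial for a ratio, Clopper-Pearson for a share). UMIs remove PCR copies, but cells of 1 library are not replicates. Cells were thinned to 5000 or 1000 UMIs where shares were compared. Scrublet called 0 and 1 doublets and so had not worked, and all cells were kept. Leaving out the 576 and 1010 top scores was tried instead, as were stricter gates, filters and TMM factors (edgeR). In simulated macrophage-gated sums of 13200 genes, 98.5% of 200 genes changed 2-fold were called in the right direction and 1.75% of unchanged genes passed 1.5-fold. The simulated sums held counting error only, without variation between cells, mice or libraries. The 1.75% is therefore no rate of false calls for the real libraries. Python 3.11.15, numpy 2.4.6, scipy 1.17.1, pandas 2.3.3, scanpy 1.11.5, matplotlib 3.10.9, R 4.3.3 and edgeR 4.0.16 were used. Gene positions came from a GRCm38 annotation.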

Additional observations from a re-analysis of the deposited data

Results flagged for a closer look

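Genes past 1.5-fold higher in 1 class and past it lower in another were picked out here, so opposite directions were fixed by the choice. Csf1 was such a gene. The ratio of the anti-VEGF over the control library was 1.64 in monocyte-gated and 3.13 in T-gated cells, against 0.553 in collagen-gated cells with Ptprc. The monocyte-gated log2 ratio became -0.026 when cells were thinned to 5000 UMIs, and the T-gated ratio rested on 24 UMIs against 10. With 1 library per group the difference between classes was not tested.

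In the lineage-gated cells set apart for high macrophage markers, only genes whose anti-VEGF interval lay above the control interval were picked out here. Their direction was therefore fixed by the choice. Cells with T or NK and macrophage markers had 10.99 CPM of Csf1 in the anti-VEGF library, against 4.33 in the control library, and 18.7 CPM of Csf2, against 2.98. Of the 51 anti-VEGF Csf2 UMIs there, 37 lay in 1 cell. Cells of other lineages with macrophage markers had 51.0 CPM of Csf1, against 32.8, and 26.4 CPM of Csf3r, against 17.2. Summed neutrophil markers in these last cells were 1677 against 414 CPM, and their part in both differences was not tested.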

How the results depend on the processing

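No paired analysis was possible because each group was 1 library. Among 11 classes of at least 30 cells in 1 library, the class with the highest mean level of both libraries was the main one for 8 of 8 genes under every alternative for levels, and the pairs of a gene and a class past 1.5-fold numbered 9, from 7 to 13 over the alternatives. Of 464 log2 ratios under alternatives, 411 kept their sign and 53 did not, 47 of these being under 1.5-fold in both settings. A further 5 fell below 1.5-fold and 18 passed it with the same sign. Csf1r in T-gated cells became 0.60 without the top doublet scores and 0.12 with the macrophage marker level at 80 in place of 40, and Csf1 in monocyte-gated cells -0.026 after thinning to 5000 UMIs. Csf2ra became -3.56 in T-gated cells with that level at 20, and in collagen-gated cells without Ptprc 1.30 as a mean over cells, where Csf2rb became -0.61 after thinning to 5000 UMIs. The marker level and the 1-cell alternatives and the thinning to 1000 UMIs were chosen after seeing the data. The cause was not tested.

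The class with the highest share of cells holding a UMI depends on depth: among classes with at least 5 cells at that depth in each library, it was the one at 5000 UMIs for 4 genes without thinning and for 4 at 1000 UMIs. Without thinning, Csf2ra and Csf2rb were both detected in 48.7% of anti-VEGF and 47.3% of control macrophage-gated cells, and Csf1 and Csf1r in 7.61% and 6.61%, where each cell holds more UMIs by construction. Depth limits the neutrophil-gated class and counts of Csf2 and Csf3.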
